A study of Mus musculus with 48 samples.

Results

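The gene group described here is a set of 35 markers of the intestine's resident phagocytes, 14 of macrophages, 10 of dendritic cells and 11 that both cell types share with other cells, not all of them myeloid. Members were taken by gene symbol from the annotation of the arrays, and 34 of the 35 had an annotated probe, 54 probes in all among the 41085 of the table. Macrophages of the gut wall engulf microbes and dying cells and clear them without inflammation. They depend on the CSF1 receptor, and most are replaced throughout life by monocytes. Dendritic cells depend on the FLT3 receptor, take up antigen below the epithelium and carry it to lymph nodes, where they prime T cells. The aryl hydrocarbon receptor (AHR), the receptor that TCDD binds, is itself present in several immune cell types of the gut.

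The animals were female mice of the C57BL/6 strain, and the RNA was that of their jejunal epithelium. They were gavaged with 1 of 8 doses of TCDD (2,3,7,8-tetrachlorodibenzo-p-dioxin, a persistent AHR ligand) between 0.01 and 30 µg/kg, spaced about 3-fold, or with the sesame oil vehicle alone. Dosing was repeated every 4 days for 28 days, although the label that gives the schedule also calls the gavage daily. At each dose 3 treated animals were each compared with 1 vehicle animal on a pair of dye-swapped arrays, which makes 24 animal pairs on 48 arrays, and the same 3 vehicle animals, those of replicates 1, 2 and 3, served all 8 doses. Each value below is a log2 ratio of treated over vehicle, the mean of the 2 arrays of a pair, so a negative value means lower in the treated animal. The age of the mice and the way the epithelium was separated from the tissue beneath it are not given in the sources used here. Log ratios carry no level, so the labelled tissue cannot be checked from the abundance of its markers, and in such bulk RNA fewer cells of a type and less RNA per cell cannot be told apart.

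Of the 54 probes, 43 from 30 genes had values on all 6 arrays of at least 1 dose, and 36 probes from 26 genes were complete at 30 µg/kg: 14 probes for 10 macrophage genes, 10 probes for 7 dendritic cell genes and 12 probes for 9 shared genes. Cd68 had no annotated probe. Cd163, a scavenger receptor of macrophages, Spi1, which encodes the myeloid transcription factor PU.1, Clec9a, a dendritic cell receptor for dead cells, and Cd209a, a lectin of dendritic cells, had a probe that was complete at no dose. Mrc1, Fcgr1, Cd83 and Itgam were complete at some doses but not at 30 µg/kg. Empty cells are left unexplained in the labels, so nothing can be read from these gaps about whether a gene was expressed.

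Known AHR targets set the direction of the ratios, which the labels do not state. Cyp1a1 at 30 µg/kg averaged 3.08 ± 0.36 (SD, n = 3; limma adjusted p 0.000196), Ahrr 3.08 ± 0.64 (adjusted p 2.0e-07) and Tiparp 1.48 ± 0.26 (adjusted p 5.3e-05). Cyp1b1 averaged 3.12 ± 0.16 by one probe (adjusted p 5.3e-06) and 0.61 ± 0.17 by the other (adjusted p 0.0046). Genes of the exocrine pancreas had a median log2 ratio above 0.5 in 6 of the 24 pairs and between -0.09 and 0.11 in the others. In replicates 1, 2 and 3 of the highest dose those medians were 3.08, -0.03 and 0.94. Only replicate 2 of that dose is free of the pancreas signal, and the main results at 30 µg/kg are therefore given pair by pair.

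Little in the group passed the test. At 30 µg/kg, 1 of the 36 member probes was called at a Benjamini-Hochberg adjusted limma p under 0.05, against 1.75% of the 25025 probes tested (0.875% lower and 0.871% higher), and that probe reports Itgax, which was lower. No member was called at a lower dose. The counts were 0 of 39 member probes at 10 µg/kg (0.140% of all probes), 0 of 39 at 1 µg/kg (0.00385%), 0 of 34 at 0.3 µg/kg (0.335%) and 0 of 39 at 0.1 µg/kg (0.0161%), while 0 probes of the whole array were called at 3, 0.03 and 0.01 µg/kg. The fit shared 1 estimate of the spread over the 24 pairs. At an unadjusted p under 0.05, the members numbered 0 of 38 at 0.01 µg/kg (2.69% of all probes), 1 of 38 at 0.03 µg/kg (3.43%), 2 of 39 at 0.1 µg/kg (4.37%) and 3 of 34 at 0.3 µg/kg (9.87%). They numbered 2 of 39 at 1 µg/kg (5.37%), 1 of 37 at 3 µg/kg (3.82%) and 4 of 39 at 10 µg/kg (6.90%). By this rule 12 of 36 stood out at 30 µg/kg (15.0% of all probes), 10 of them lower and 2 higher, where 7.36% of all probes were lower and 7.63% higher by the same rule. They comprised 6 lower macrophage probes, 2 lower and 1 higher dendritic cell probe, and 2 lower and 1 higher shared probe. Below 0 in all 3 pairs were 10 of the 36 (14.4% of all probes) and above 0 in all 3 were 6 (15.0% of all probes).

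**Figure D1:**
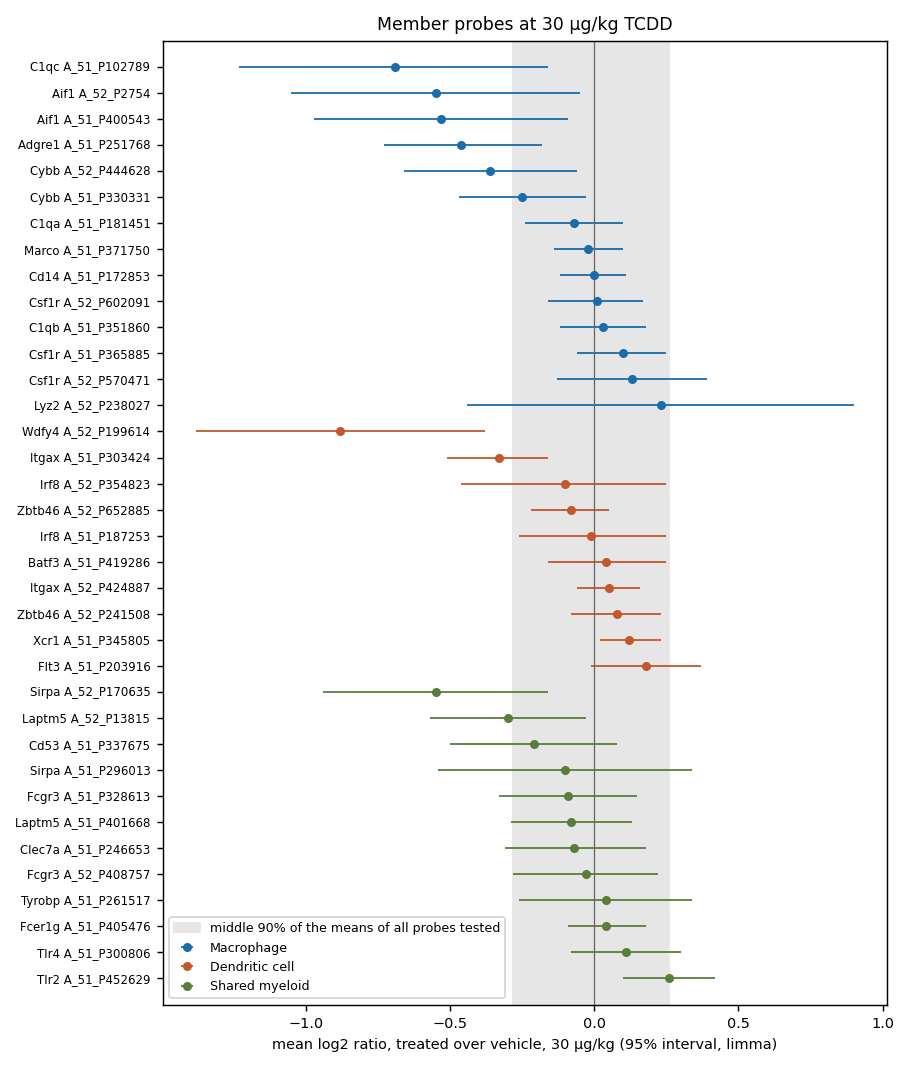
Mean log2 ratio of treated over vehicle at 30 µg/kg for the 36 complete member probes (points) with 95% intervals from limma (bars), by group from top to bottom; the grey band holds the middle 90% of the means of all 25025 probes, from -0.28 to 0.26. The lowest means are those of Wdfy4 at -0.88 and C1qc at -0.69, while the probes of Csf1r, Cd14, Marco and C1qb lie close to 0.

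Itgax, which encodes CD11c, the integrin chain used to recognise intestinal dendritic cells and also carried by gut macrophages, fell at 30 µg/kg by its probe A_51_P303424. The pairs of replicates 1, 2 and 3 had -0.45, -0.22 and -0.33, a mean of -0.33 ± 0.12 (SD, n = 3; 95% interval -0.51 to -0.16; limma adjusted p 0.0498). All 3 pairs and all 6 arrays were below 0. With the vehicle animal as a block the adjusted p was 0.0545, so the call ends there, and it also ended on leaving out any 1 replicate (adjusted p 0.118 to 0.356). At 10 µg/kg the pairs had -0.26, -0.23 and -0.01, and at the 6 lower doses the pair values ran from -0.22 to 0.25 on both sides of 0. The second probe of the gene, A_52_P424887, had 0.06, 0.09 and 0.00 at 30 µg/kg, a mean of 0.05 (adjusted p 0.717), and over the 24 pairs the probes had the same sign in 13. Which transcripts each probe reports is not given in the sources used here. The promoter of Itgax is shown because it is the member that was called and its window holds the core of the AHR response element. It spans GRCm38.p6 chr7:128129300-128129599 on the plus strand in RefSeq, from 250 bases before to 50 after the gene's start, and the capitals mark GCGTG, here on the opposite strand as CACGC. These letters stood in 32.4% of all promoter windows, and also in those of Irf8 and Xcr1, which were not called.
Itgax promoter: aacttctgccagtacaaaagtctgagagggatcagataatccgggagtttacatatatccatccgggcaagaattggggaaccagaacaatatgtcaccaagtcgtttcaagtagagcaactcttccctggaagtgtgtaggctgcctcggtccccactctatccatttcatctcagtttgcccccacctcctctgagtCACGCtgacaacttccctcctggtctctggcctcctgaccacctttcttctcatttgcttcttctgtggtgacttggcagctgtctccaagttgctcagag

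Wdfy4, needed in mouse type 1 dendritic cells for the presentation of antigen taken up from other cells, had the lowest mean of the group at 30 µg/kg and did not pass the test. Its pairs had -1.03, -1.22 and -0.38, a mean of -0.88 ± 0.44 (adjusted p 0.0691), with all 6 arrays below 0. The pair free of pancreas signal was the lowest of the 3. Across doses the gene was below 0 in 20 of 24 pairs. At 0.01 µg/kg its pairs had 0.50, -0.56 and -0.09, and at 0.03 µg/kg they had -0.07, 0.54 and -0.77. Single pairs below that of replicate 3 at 30 µg/kg (-0.38) thus also occurred at the bottom of the dose range. Pairs at 1 µg/kg had -0.22, -0.95 and -0.26, a mean of -0.48. Those at 10 µg/kg had -0.15, -1.10 and -0.07, a mean of -0.44, and the pair of replicate 2 was far below the others at both doses. Over the 8 doses, the mean ratio was -0.15 against the vehicle animal of replicate 1, -0.58 against that of replicate 2 and -0.16 against that of replicate 3 (limma F test, adjusted p 0.129). Between 30 µg/kg and the 3 lowest doses the difference was -0.81 ± 0.28 (SE; adjusted p 0.239), and its slope was -0.20 ± 0.07 per 10-fold of dose (SE; adjusted p 0.229).

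The remaining dendritic cell genes had means between -0.10 and 0.18 at 30 µg/kg. Xcr1, the chemokine receptor that marks type 1 dendritic cells, had 0.09, 0.13 and 0.15, a mean of 0.12 ± 0.03 (adjusted p 0.232). Its ratios were small at every dose, between -0.10 and 0.17. Flt3, the growth factor receptor of the lineage, had 0.50, 0.04 and 0.00 (mean 0.18 ± 0.28; adjusted p 0.374), so its mean rests on replicate 1. Batf3 and Irf8 encode transcription factors required for type 1 dendritic cells. Batf3 had 0.39, -0.20 and -0.07 at 30 µg/kg. Irf8 had -0.40, 0.44 and -0.07 by one probe and -0.61, 0.65 and -0.35 by the other, so that the pair of replicate 2 stood above 0 and the rest below by both. Zbtb46, a transcription factor of conventional dendritic cells, averaged 0.08 and -0.08 by its 2 probes. These genes of type 1 dendritic cells thus gave no common direction, with Wdfy4 at -0.88 and Xcr1, Batf3 and Irf8 between -0.10 and 0.12. Bulk RNA does not show which cells these ratios come from, so none can be read as a value of dendritic cells alone.

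**Figure D2:**
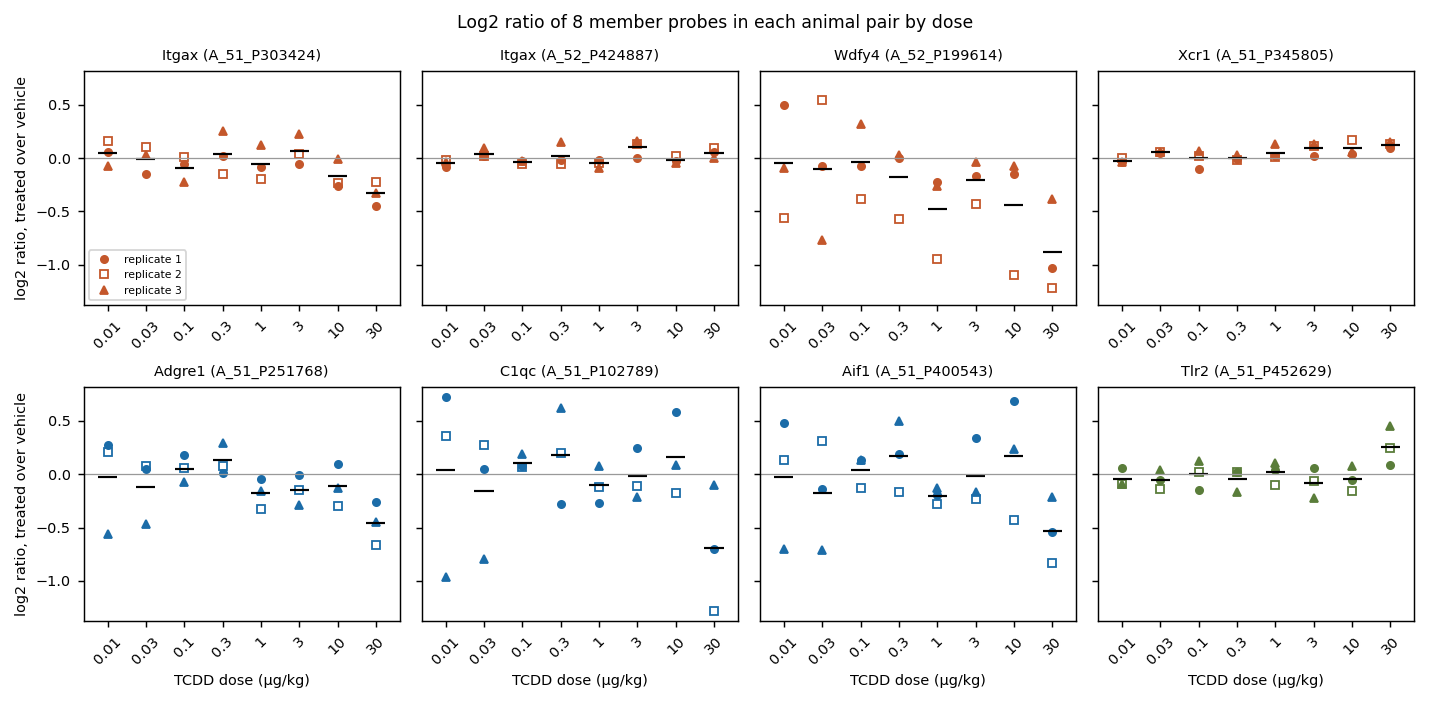
Log2 ratio of treated over vehicle (vertical axis) by TCDD dose in µg/kg (horizontal axis, evenly spaced) for 8 member probes; each symbol is 1 animal pair, its shape the replicate, and the black line the mean of 3 pairs. At 30 µg/kg all pairs of Itgax A_51_P303424, Wdfy4, Adgre1, C1qc and Aif1 lie below 0 and those of Tlr2 and Xcr1 above, while C1qc and Aif1 also have low pairs of replicate 3 at 0.01 and 0.03 µg/kg.

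Among the macrophage genes, 0 of 14 probes were called at 30 µg/kg, and the 6 with an unadjusted p under 0.05 come from Adgre1, C1qc, Aif1 and Cybb. Adgre1 encodes F4/80, the surface receptor used to identify mouse macrophages. Its pairs had -0.26, -0.66 and -0.45, a mean of -0.46 ± 0.20 (adjusted p 0.0836), and all 6 arrays were below 0. Adgre1 averaged -0.18, -0.15 and -0.11 at the doses of 1, 3 and 10 µg/kg. Single pairs as low as those at 30 µg/kg also occurred at the bottom of the dose range, where replicate 3 of 0.01 µg/kg had -0.56 and that of 0.03 µg/kg had -0.47.

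Aif1, which encodes the calcium-binding protein IBA1 of macrophages, had means below 0 by both of its probes. Probe A_51_P400543 had -0.54, -0.83 and -0.21 (mean -0.53 ± 0.31; adjusted p 0.231) and A_52_P2754 had -0.84, -0.74 and -0.07 (mean -0.55 ± 0.42; adjusted p 0.273). The 2 probes had the same sign in 22 of 24 pairs, more than any other pair of probes of 1 member counted over all 24. They too were low in replicate 3 at 0.01 µg/kg (-0.70 by A_51_P400543, -0.78 by A_52_P2754) and in the same replicate at 0.03 µg/kg (-0.71, -1.05). In those pairs the medians were 0.00 and 0.05 for pancreas genes and 0.02 and 0.05 for T cell genes. They were -0.17 and -0.16 for stromal and smooth muscle genes and -0.26 and -0.10 for endothelial genes. The part of such shifts in the Aif1 values was not tested. Cybb, the catalytic chain of the phagocyte NADPH oxidase, had -0.61, -0.47 and 0.01 by probe A_52_P444628 (mean -0.36 ± 0.33; adjusted p 0.232) and 0.02, -0.54 and -0.22 by probe A_51_P330331 (mean -0.25 ± 0.28; adjusted p 0.27). By A_52_P444628 the mean was also below 0 at 0.3 µg/kg (-0.32), 1 µg/kg (-0.27), 3 µg/kg (-0.24) and 10 µg/kg (-0.21), but by A_51_P330331 it was 0.08, 0.16, -0.02 and 0.12 at these doses.

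The 3 chains of C1q, the complement component that macrophages make and that tags dying cells, are encoded by C1qb, C1qc and C1qa, neighbours on chromosome 4 in that order among the protein-coding genes of RefSeq (GRCm38.p6). Their ratios did not move alike. C1qc had -0.70, -1.28 and -0.10 at 30 µg/kg, a mean of -0.69 ± 0.59 (adjusted p 0.191). C1qa had -0.12, -0.18 and 0.09 (mean -0.07 ± 0.14) and C1qb 0.17, -0.01 and -0.08 (mean 0.03 ± 0.13). Over the 24 pairs C1qc ran from -1.28 to 0.72, C1qa from -0.32 to 0.19 and C1qb from -0.13 to 0.26. C1qc thus had a wider range than its partners, and its low pairs of replicate 3 at 0.01 µg/kg (-0.96) and 0.03 µg/kg (-0.79) lie in the range of those at 30 µg/kg. The mean of C1qc rested on which pairs were kept: it was -0.69 without replicate 1 (adjusted p 0.383), -0.40 without replicate 2 (adjusted p 0.704) and -0.99 without replicate 3 (adjusted p 0.0379). The files give no intensities, so the brightness of these spots is unknown.

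Promoters of Aif1, C1qc and C1qb are shown because Aif1 and C1qc had the widest ranges among the macrophage genes apart from Lyz2, and C1qb, a neighbour of C1qc, had one of the narrowest. They are RefSeq windows of GRCm38.p6 at chr17:35176003-35176302, chr4:136892865-136893164 and chr4:136886151-136886450, each on the minus strand and read 5′ to 3′ along the gene. Capitals mark GAGGAA, the core letters of the sites of PU.1, the transcription factor of myeloid cells, on either strand (TTCCTC on the other).
Aif1 promoter: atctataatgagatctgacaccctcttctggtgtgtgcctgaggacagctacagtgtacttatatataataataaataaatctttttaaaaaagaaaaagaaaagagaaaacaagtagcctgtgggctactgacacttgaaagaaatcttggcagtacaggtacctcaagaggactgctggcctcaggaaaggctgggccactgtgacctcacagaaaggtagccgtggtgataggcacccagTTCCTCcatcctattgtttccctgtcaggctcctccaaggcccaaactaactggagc
C1qc promoter: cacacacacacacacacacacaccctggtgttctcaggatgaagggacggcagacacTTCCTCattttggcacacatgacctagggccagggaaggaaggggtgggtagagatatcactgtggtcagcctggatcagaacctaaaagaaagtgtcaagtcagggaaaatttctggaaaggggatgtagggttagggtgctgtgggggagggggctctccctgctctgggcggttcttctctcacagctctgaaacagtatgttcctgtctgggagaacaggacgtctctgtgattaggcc
C1qb promoter: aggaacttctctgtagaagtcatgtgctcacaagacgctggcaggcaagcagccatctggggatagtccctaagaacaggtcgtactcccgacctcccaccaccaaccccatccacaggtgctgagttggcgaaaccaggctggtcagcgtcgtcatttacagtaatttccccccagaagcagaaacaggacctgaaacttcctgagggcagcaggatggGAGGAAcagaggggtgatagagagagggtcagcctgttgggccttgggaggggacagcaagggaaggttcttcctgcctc
Each holds 1 match, so the letters alone do not set C1qc apart from C1qb. Windows were found for 26 of the 35 members, 29 windows in all, and Adgre1, Csf1r, C1qa, Cd14, Cd83, Tyrobp, Spi1, Sirpa and Tlr4 had none in the table. GAGGAA or TTCCTC stood in 16 of the 29 windows (55.2%), against 28.3% of all 32851 windows: 8 of 10 for macrophage genes, 7 of 9 for shared genes and 1 of 10 for dendritic cell genes, that of Batf3. GCGTG or CACGC stood in 6 of the 29 (20.7%), against 32.4% of all windows: 0 of 10 for macrophage genes, 3 of 10 for dendritic cell genes (Itgax, Irf8 and Xcr1) and 3 of 9 for shared genes (Fcer1g and both windows of Fcgr3). These are matches of letters in 300 bases and say nothing of binding.

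The other macrophage genes stayed close to 0 at 30 µg/kg, apart from Lyz2. Csf1r, the growth factor receptor on which macrophages depend, averaged 0.10, 0.13 and 0.01 by its 3 probes. At 10 µg/kg its probe A_52_P602091 had 0.14, 0.41 and 0.43 (mean 0.33 ± 0.16; adjusted p 0.181), a value named after the data were seen. The other 2 probes averaged 0.15 and 0.24 there, and all 9 values of the gene at 10 µg/kg were above 0. Cd14, the co-receptor for bacterial lipopolysaccharide, had -0.04, 0.01 and 0.03 at 30 µg/kg, and Marco, a scavenger receptor, had 0.02, -0.02 and -0.06. Lyz2, the macrophage lysozyme, had 0.07, -0.38 and 1.00 (mean 0.23 ± 0.70; adjusted p 0.81). Its close copy Lyz1, the lysozyme of Paneth cells in the crypts, had -0.07, -0.39 and 1.89, so the 2 genes were high and low in the same replicates and hybridization across them cannot be told apart from Lyz2 itself. Of the genes that were complete only at other doses, Fcgr1, the high-affinity receptor for immunoglobulin G, had -0.25, -0.15 and -0.33 at 1 µg/kg (mean -0.24; adjusted p 0.91) but 0.22, 0.33 and 0.15 at 10 µg/kg (mean 0.24; adjusted p 0.684). Mrc1, the mannose receptor, was complete at 0.1 µg/kg (mean -0.06) and 1 µg/kg (mean 0.14).

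The shared genes held both directions. Tlr2, a receptor for bacterial lipoproteins, had 0.09, 0.25 and 0.45 at 30 µg/kg, a mean of 0.26 ± 0.18 (adjusted p 0.0881), and at the other 7 doses its means lay between -0.08 and 0.02. The difference of Tlr2 between 30 µg/kg and the 3 lowest doses was 0.29 ± 0.09 (SE; adjusted p 0.145), and it had the smallest p of the group in that contrast. Tlr4, the receptor for lipopolysaccharide, averaged 0.11. Sirpa, the inhibitory receptor that binds CD47 and marks type 2 dendritic cells and macrophages, had -0.52, -0.73 and -0.40 by probe A_52_P170635 (mean -0.55 ± 0.16; adjusted p 0.153). By probe A_51_P296013 Sirpa had 0.49, -0.42 and -0.37, so the probes were opposite in replicate 1. Laptm5, a lysosomal membrane protein of blood cells, had -0.05, -0.54 and -0.31 by probe A_52_P13815 (mean -0.30 ± 0.24; adjusted p 0.28) and averaged -0.08 by its other probe. Cd53, a tetraspanin of leukocytes, had -0.13, -0.46 and -0.04 (mean -0.21 ± 0.22; adjusted p 0.527).

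Signalling chains and receptors for antibody in the shared list had means near 0 at 30 µg/kg, in the case of Tyrobp from pairs on both sides of 0. Fcer1g, the signal chain of several antibody receptors, averaged 0.04, and Fcgr3, a low-affinity receptor for immunoglobulin G, averaged -0.09 and -0.03 by its 2 probes. Tyrobp, the adaptor DAP12, had 0.22, -0.52 and 0.41 (mean 0.04 ± 0.49), and Clec7a, the receptor for fungal glucan, averaged -0.07. Itgam, the CD11b integrin chain, lacked a complete probe at 30 µg/kg and had means between -0.15 and -0.02 at the 4 doses where it was complete.

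The macrophage and dendritic cell groups did not differ in their medians by more than single pairs did. At 30 µg/kg the median over the probes was -0.04 for macrophage genes (-0.04, -0.28 and -0.06 in the 3 pairs), 0.02 for dendritic cell genes (0.00, 0.03 and -0.07) and -0.07 for shared genes (-0.03, -0.29 and 0.06), against 0.00 for all probes. The difference of the macrophage minus the dendritic cell median was -0.04, -0.31 and 0.01 in those pairs, and the large value is that of replicate 2, the pair free of pancreas signal. Across the 24 pairs this difference ran from -0.31 to 0.20 with a median of 0.02, below 0 in 9 pairs and above in 15. It was -0.19 in replicate 3 of 0.01 µg/kg, -0.21 in that of 0.03 µg/kg, and 0.20 in replicate 1 of 10 µg/kg. No test was made of this difference.

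**Figure D3:**
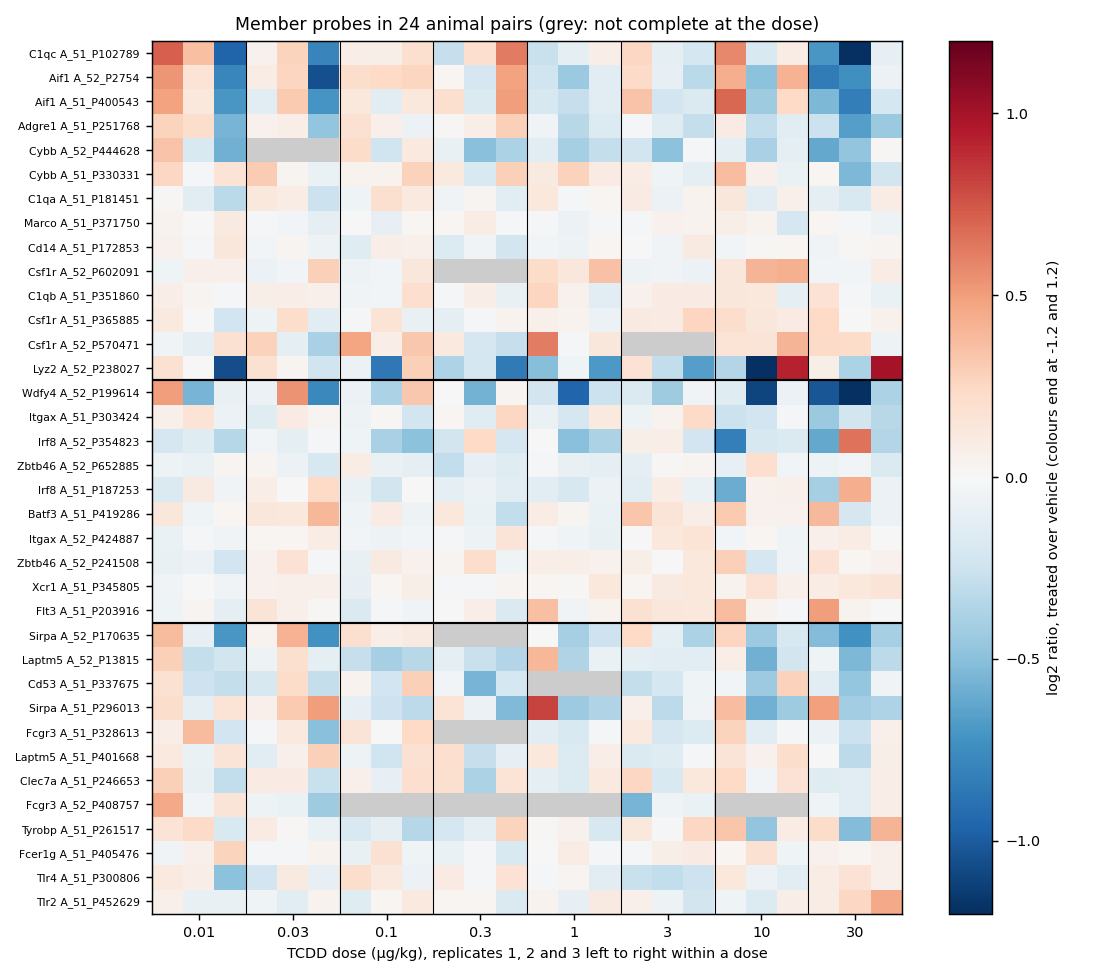
Log2 ratio of treated over vehicle for the 36 member probes complete at 30 µg/kg (rows, in the 3 groups from top to bottom: macrophage, dendritic cell, shared) in the 24 animal pairs (columns, by dose in µg/kg with replicates 1, 2 and 3 from left to right). C1qc, both probes of Aif1, Adgre1 and Sirpa A_52_P170635 are blue in replicates 1 and 2 of 30 µg/kg and in replicate 3 of 0.01 and 0.03 µg/kg. In replicate 3 of 30 µg/kg they are also below 0, but C1qc (-0.10) and Aif1 A_52_P2754 (-0.07) are pale there. C1qb, Cd14, Marco, Xcr1 and Itgax A_52_P424887 are pale throughout.

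Some members moved with Adgre1 from pair to pair. The sign of their ratio equalled that of Adgre1 in 20 of 24 pairs for Aif1 A_52_P2754, in 19 for C1qc, in 18 for Aif1 A_51_P400543 and Tlr4, and in 18 of 23 for Fcgr3 A_51_P328613 and Sirpa A_52_P170635. Over the 20840 probes complete on all arrays the median was 12 of 24, and 2.02% had 18 or more. Xcr1 (7), Fcer1g (8), Cd14 (9), Tlr2 (9) and Itgax A_52_P424887 (9) stood at the other end among probes with 24 pairs. The 24 pairs share 3 vehicle animals, so these counts are a description without a test.

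The members differed in how much they varied from pair to pair. The SD over the pairs was above 0.16, the median over probes complete on all arrays, for 26 of 37 member probes with at least 20 pairs (70.3%), a count without a test. Only 29 member probes were complete on all 48 arrays. Those of the 37 that were not had SDs of 0.17 to 0.35, all above 0.16, so the share is not one of like probes. The SD was 0.56 for Lyz2 A_52_P238027, 0.49 for C1qc, 0.47 for Wdfy4, 0.45 and 0.40 for the probes of Aif1 and 0.26 for Adgre1, against 0.13 for C1qa, 0.10 for C1qb, 0.08 for Cd14 and 0.07 for Marco, Xcr1 and Itgax A_52_P424887. Probes of 1 gene often differed: of the 2 Zbtb46 probes the signs were equal in 7 of 24 pairs, of the Cybb probes in 11 of 23 and of the Csf1r probes in 8 of 23, 10 of 23 and 12 of 22.

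The dose series gave no call either. In the slope on log10 dose 0 of 29 member probes passed the test (0.379% of all probes did), and 6 had an unadjusted p under 0.05 (11.8% of all probes): Wdfy4, Itgax A_51_P303424 and Adgre1 with a negative slope, and Xcr1, Flt3 and Csf1r A_51_P365885 with a positive one. Between 30 µg/kg and the 3 lowest doses 0 of 34 passed (0.689% of all probes), and 8 had an unadjusted p under 0.05 (11.2% of all probes). Those 8 were Itgax A_51_P303424 (-0.32 ± 0.10, SE), Cybb A_51_P330331 (-0.36 ± 0.12), Wdfy4, Adgre1 (-0.43 ± 0.15), Sirpa A_52_P170635 (-0.52 ± 0.22) and C1qc (-0.69 ± 0.30) on the lower side, and Tlr2 and Xcr1 on the higher.

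Genes that recruit, feed or further mark these cells were not called against vehicle at any dose either. Of 38 such companion genes (growth factors, chemokines and their receptors, transcription factors and other markers), 37 probes from 27 genes were complete at 30 µg/kg and 0 were called, with 5 at an unadjusted p under 0.05 (15.0% of all probes) and a median of -0.05. Ptprc, the pan-leukocyte receptor CD45, had -0.50, -0.76 and -0.05 by probe A_52_P677117 (mean -0.44 ± 0.36; adjusted p 0.18). By probe A_52_P239834 Ptprc had -0.41, -0.32 and 0.08 (mean -0.22; adjusted p 0.51). Ly75, the dendritic cell receptor DEC-205, had -0.59, -0.13 and -0.38 by one probe (mean -0.37; adjusted p 0.117) but 0.26, 0.25 and 0.10 by the other (mean 0.20; adjusted p 0.186). Relb, a transcription factor of dendritic cell maturation, averaged 0.33 ± 0.40 (adjusted p 0.208).

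Marker lists of other cells had their own medians over the same 3 pairs at 30 µg/kg. MHC class II genes, which are not specific to 1 cell type, had medians of -1.04, 0.16 and -0.46. They were highest in replicate 2, where the macrophage median was lowest at -0.28, and 1 probe, of H2-Oa, was called higher. B and plasma cell genes had -0.39, -0.39 and -0.08, with 3 probes of Jchain and Tnfrsf17 called lower. T cell genes had 0.16, -0.03 and 0.07 with Thy1 called lower, epithelial genes 0.20, 0.23 and 0.05, endothelial genes -0.28, -0.16 and -0.12, and stromal and smooth muscle genes -0.02, 0.06 and -0.11. Monocyte and neutrophil genes had 2 complete probes from 10 genes, with a median of -0.10. The part of these shifts in the values of the members was not tested. In replicate 2, where the pancreas median was -0.03, C1qc, Adgre1, Wdfy4, Aif1 A_51_P400543 and Sirpa A_52_P170635 had their lowest value of the 3 pairs. Itgax A_51_P303424, the called probe, was nearest to 0 there (-0.22), and Aif1 A_52_P2754 (-0.74) and Cybb A_52_P444628 (-0.47) were lower in replicate 1 than there.

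**Figure D4:**
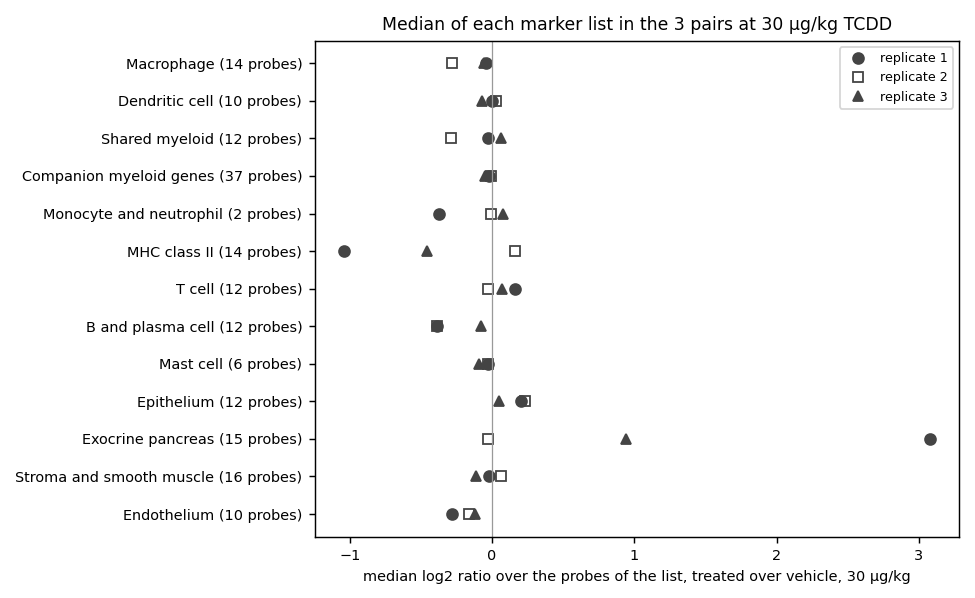
Median log2 ratio of treated over vehicle over the probes of each marker list (rows, with the number of probes) in the 3 animal pairs at 30 µg/kg (symbols by replicate). The pancreas list stands at 3.08 and 0.94 in replicates 1 and 3 and at -0.03 in replicate 2, and the macrophage and shared myeloid lists are lowest in replicate 2, at -0.28 and -0.29.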

How the data were processed

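RNA of jejunal epithelium was measured on 48 two-colour arrays, per the labels' protocols. The authors deposited 1 log ratio per probe and array, here taken as log2 of treated over vehicle; base, sign, background correction and normalization are not given in the sources used here, and the file holds no intensities. Of the cells, 25.0% are empty, and arrays hold 27341 to 33126 values. Each array was centred on its median (-0.104 to 0.077 as deposited). The 2 arrays of a pair were averaged, and 269 probes that hold an array's most frequent value on 6 or more arrays were left out, none of them a member's.

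Probes complete on the 6 arrays of a dose were tested with limma 3.58.1 (R 4.3.3; lmFit, eBayes), 1 mean per dose over 24 pairs, two-sided, with Benjamini-Hochberg adjustment over all probes, and called at an adjusted p under 0.05. The slope on log10 dose, the contrast of 30 µg/kg with the 3 lowest doses and an F test of the vehicle animals were fitted likewise. The number of animals, 3 treated at each dose against 3 shared vehicle animals, limits the precision. Symbols came from the array's annotation, 32555 probes with 1 symbol, and promoters from RefSeq. The code was tested on simulated data.

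Pairs of 1 replicate number share a vehicle animal, per the labels, so the numbers pair the samples. With dose means removed, such pairs correlated with a mean of 0.276 over 84 combinations, and pairs with different vehicle animals with -0.138 over 168. The vehicle animal as a block was therefore an alternative, beside other scalings, single dye orientations (statmod 1.5.0 for the block) and replicates left out.

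The member genes, the lists and the tests were chosen with earlier results of these data known. Values by pair are given for called members and, in each of the 3 groups, for the 4 probes with the smallest p at 30 µg/kg, and for others where named.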

Additional observations from a re-analysis of the deposited data

Results flagged for a closer look

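Between the 3 vehicle animals, 3 of 29 member probes differed in a limma F test with dose in the fit, 10.3% against 22.5% of all 20840 probes tested. The treated animals of a replicate number share that number too, so the test does not assign a difference to the vehicle animal alone. Laptm5 A_51_P401668 averaged 0.03 over the 8 pairs of the vehicle animal of replicate 1, -0.14 over those of replicate 2 and 0.11 over those of replicate 3 (adjusted p 0.0257). Laptm5 A_52_P13815 averaged 0.02, -0.30 and -0.22 in the same order (adjusted p 0.0291), so for replicate 3 the 2 probes of the gene lie on opposite sides of 0. Sirpa A_51_P296013 averaged 0.26, -0.23 and -0.17 (adjusted p 0.0309). Without the pairs at 30 µg/kg, 0 of 29 member probes passed this test, against 2825 of 20982 probes in all (4682 of 20840 with them).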

How the results depend on the processing

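The member probes called at 30 µg/kg numbered 1 as reported. They numbered 3 without centring (Adgre1, Itgax and Wdfy4), 5 of 43 with the treated animal in Cy5 only (2231 of 27355 probes in all) and 3 of 37 with it in Cy3 only (1220 of 26663). Itgax was among the genes called in each orientation, but its probe A_51_P303424 was called in neither (limma adjusted p 0.165 in Cy5 and 0.172 in Cy3). The called member probes numbered 0 after quantile normalization, with probes averaged to genes, with the pairs of that dose alone, with the vehicle animal as a replicate block, and without the pairs of replicates 1 and 3, which carry the pancreas signal. Leaving out 1 replicate gave 0 to 1, and that call was of C1qc, without replicate 3, not of Itgax. The block changed no other call of a member. With single dye orientations, where a dye effect does not cancel, 1 of 40 member probes was called at 10 µg/kg in either orientation (Cy5 707 of 27670 and Cy3 449 of 27599 in all), 2 of 39 (Cy5, 1595 of 25649) and 1 of 37 (Cy3, 2271 of 24385) at 0.3 µg/kg and 1 of 41 (Cy3, 1049 of 26255) at 0.1 µg/kg. In the contrast of 30 µg/kg with the 3 lowest doses, leaving out 1 replicate gave 0 to 1 (C1qc, without replicate 3). Between the vehicle animals, the count was 0 of 29 without 30 µg/kg (2825 of 20982 in all), against 3 with it. No direction of the 12 member probes followed through the alternatives turned. Of their values 144 kept direction and side of the threshold, 10 lost the call and 8 gained one. The 10 were all of Itgax A_51_P303424, and the 8 were 3 of Wdfy4, 2 of Adgre1, 2 of C1qc and 1 of Sirpa A_52_P170635. The cause of these changes was not tested, beyond fewer samples where pairs are left out.

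Over all probes, 437 were called at 30 µg/kg (218 higher, 219 lower), against 736 without centring (158 higher, 578 lower), 235 after quantile normalization, 20 with the pairs of that dose alone and 109 without the pairs of replicates 1 and 3. Replicates left out gave 145 to 234. The missing intensities limit what can be said of members with narrow ratios, and 3 shared vehicle animals limit every comparison.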
